A study of Mus musculus with 9 samples.

Results

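The 10 genes described here belong to the Yap/Tead pathway: the coactivators *Yap1* and *Wwtr1*, the DNA-binding partner *Tead1*, the kinases *Lats1* and *Lats2*, the inhibitor *Amotl2*, and the targets *Ctgf*, *Cyr61*, *Ankrd1* and *Axl*. They were found by symbol in the GENCODE M1 annotation, and all 10 are among the 13259 genes listed in both tables used here. RNA came from AML12 cells, a mouse hepatocyte line grown with dexamethasone and insulin, transferrin and selenium supplement, in 9 libraries. There were 3 libraries labelled control, 3 with Srrm2 shRNA 1 and 3 with Srrm2 shRNA 2, the hairpins being delivered by lentivirus for 5 days. SRRM2 is a scaffold protein of nuclear speckles, and the study depleted it to disrupt these bodies.

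In the Hippo pathway, LATS1 and LATS2 phosphorylate YAP and TAZ, the proteins of *Yap1* and *Wwtr1*, and keep them out of the nucleus. Unphosphorylated YAP and TAZ enter it and, bound to TEAD factors, activate genes of matrix signalling and growth. In liver the pathway limits organ size, and YAP activity is known to be low in mature hepatocytes and high in bile duct cells and in cultured cells that spread on stiff surfaces.

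The values used are the authors' means of normalized counts. The table of shRNA 1 gives 1 mean per gene over the 3 control and 3 shRNA 1 libraries pooled, and the table of shRNA 2 gives 1 mean over the control and shRNA 2 libraries. No value per library was used, so the means have no SD, no difference could be tested against the spread between replicates, and the depth of each library is unknown. The difference of either hairpin from control, including the depletion of *Srrm2* itself, is not analysed here. What the means do show is how abundant each gene was in these cultures and how far the pooled means differed between the hairpins.

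Of 7 hepatocyte markers, all had a value in both tables, from 39.4 (*Apoa1*) to 9848 (*Krt18*) in the table of shRNA 1. Of 4 cholangiocyte markers 3 had a value in both tables, and these were high, from 670 (*Sox9*) to 2851 (*Krt19*) in the same table. *Epcam* is not analysed here. The summed means of the hepatocyte list were 24715 and 23329 in the tables of shRNA 1 and shRNA 2, and those of the cholangiocyte list 4871 and 5120. The largest values of the hepatocyte list were those of *Krt18* (9848) and *Krt8* (8292) in the table of shRNA 1, and they dominate its sum. Next came *Ttr* (2497) and *Alb* (2151). Whether *Krt18* and *Krt8* set hepatocytes apart from duct cells was not tested. The lists differ in size and the sums are not corrected for gene length, so they do not compare the cell types. Of 5 fibroblast or stellate markers 2 had a value in both tables, and of 3 leukocyte markers 2, all at or below 29.8. The other markers of these lists and the endothelial markers are not analysed here. The part of duct-like expression in the levels given below was not tested.

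TEAD factors bind the 6-letter core GGAATG, which reads CATTCC on the other strand. It was searched on both strands from 250 bases before to 50 bases after each start site in RefSeq promoters (GRCm38.p6, a later build than that of the tables). Of the 10 genes, 8 had a promoter there, and *Tead1* and *Ctgf* had none. A core lay in a promoter of 7 of the 8 genes, all but *Lats1*. Over the whole promoter table, 14.7% of 32851 promoters held it, and 16.6% of 27025 genes had it in at least 1 promoter. The matches are shown because these genes are regulators or targets of TEAD factors, with the core in capitals and 12 bases on each side, read along the gene's strand.
Cyr61 (listed as Ccn1), chr3:145650071-145650100, minus strand, core from 103 bases upstream: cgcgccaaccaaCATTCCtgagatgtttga
Ankrd1, chr19:36120037-36120066, minus strand, core from 210 bases upstream: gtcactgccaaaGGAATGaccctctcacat
Ankrd1, chr19:36119950-36119979, minus strand, core from 123 bases upstream: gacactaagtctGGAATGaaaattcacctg
Axl, chr7:25788949-25788978, minus strand, core from 233 bases upstream: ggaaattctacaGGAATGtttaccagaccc
Amotl2, chr9:102717727-102717756, plus strand, core from 65 bases upstream: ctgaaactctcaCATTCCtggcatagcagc
Yap1, chr9:8004720-8004749, minus strand, core from 141 bases upstream: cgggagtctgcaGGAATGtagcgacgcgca
Wwtr1, chr3:57576029-57576058, minus strand, core from 170 bases upstream: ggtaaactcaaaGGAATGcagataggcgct
Lats2, chr14:57746102-57746131, minus strand, core from 4 bases downstream: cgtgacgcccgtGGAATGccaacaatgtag
Most of these promoters carry a single core, and that of *Ankrd1* carries 2. The core in *Lats2* lies past the start site, and the other promoter listed for this gene has none. For *Wwtr1* too, 2 promoters are listed, with 1 match between them. Binding of TEAD factors to these letters was not measured.

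All 10 genes were abundant in AML12 cells. By mean normalized count in the table of shRNA 1 they lay between percentiles 83.9 (*Wwtr1*) and 99.7 (*Ctgf*) of the 13259 genes, with a median percentile of 93.8. Together they held 0.405% and 0.381% of the summed means of the tables of shRNA 1 and shRNA 2. To compare genes with each other, each mean was divided by the length of the gene's annotated exons in kilobases. By this level in the table of shRNA 1 they lay between percentiles 78.3 (*Lats1*) and 99.8 (*Ctgf*). Several long genes ranked lower by it than by mean count, with *Yap1* at 79.8 instead of 92.7 and *Tead1* at 82.6 instead of 95.5.

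**Figure D1:**
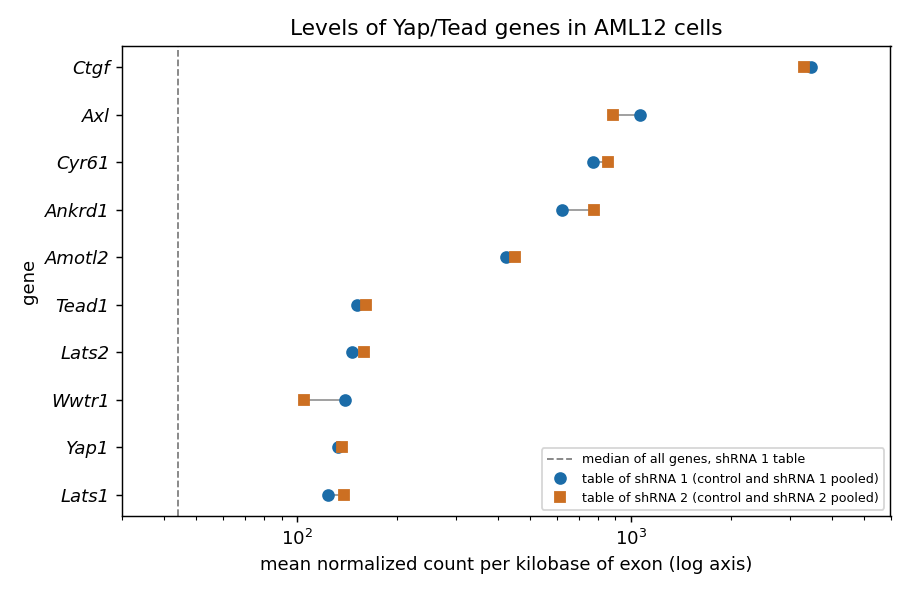
Mean normalized count per kilobase of exon (log axis) of the 10 Yap/Tead genes in the table of shRNA 1 (circles) and the table of shRNA 2 (squares), each the authors' mean over the control libraries and those of 1 hairpin, with no error bars because no value per library was used. All 10 genes lie right of the median of all genes in the table of shRNA 1 (44.2, dashed line), *Ctgf* is highest in both tables, and the coactivators, the kinases and *Tead1* lie together between 105 and 162.

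By exon length, *Ctgf*, *Axl*, *Cyr61* and *Ankrd1* stood at the top of the order. By coding length, *Tead1* (1301 per kilobase of coding sequence in the table of shRNA 1) stood above *Ankrd1* (1145) and *Amotl2* (1102). *Ctgf*, which encodes a secreted matricellular protein that binds growth factors and integrins, lies on the + strand of chromosome 10 from 24315248 to 24318489 (NCBIM37, the assembly of mm9). Its mean normalized counts were 8658 in the table of shRNA 1 and 8222 in that of shRNA 2, or 3477 and 3302 per kilobase. This was the highest level among the 10 genes in both tables. An annotated gene on the opposite strand, *Gm15270*, overlaps 22.9% of its exonic bases.

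*Axl*, a receptor tyrosine kinase for GAS6, lies on the - strand of chromosome 7 from 26542292 to 26573724. Its means were 5361 and 4453, or 1065 and 885 per kilobase. *Ctgf* was thus 3.26-fold and 3.73-fold above *Axl* per kilobase in the tables of shRNA 1 and shRNA 2. *Cyr61*, a relative of *Ctgf* and also a secreted matricellular protein, lies on the - strand of chromosome 3 from 145309935 to 145312949. Its means were 1568 and 1734, or 773 and 855 per kilobase, so that *Ctgf* exceeded it 4.50-fold and 3.86-fold per kilobase.

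*Ankrd1*, an ankyrin-repeat protein of striated muscle and the nucleus, lies on the - strand of chromosome 19 from 36186455 to 36194334. It had means of 1095 and 1367, or 621 and 774 per kilobase. *Amotl2*, a junction protein that binds YAP and is itself a target of YAP, lies on the + strand of chromosome 9 from 102619002 to 102635748. It had means of 2662 and 2825, or 423 and 449 per kilobase. The order *Ctgf*, *Axl*, *Cyr61*, *Ankrd1* and *Amotl2* was the same in both tables, although *Axl* and *Cyr61* lay close to each other in that of shRNA 2. Without a spread between libraries it cannot be said which neighbours in this order differ.

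By exon length, the coactivators and kinases were lower and close together. By coding length they were spread further in the table of shRNA 1, with *Lats1* at 268 per kilobase, *Lats2* at 342, *Wwtr1* at 490 and *Yap1* at 839. *Yap1* lies on the - strand of chromosome 9 from 7931999 to 8004596, and *Wwtr1* on the - strand of chromosome 3 from 57259571 to 57379832. *Yap1* had means of 1229 and 1263, or 133 and 136 per kilobase. *Wwtr1* had 665 and 503, or 139 and 105 per kilobase. The ratio of *Yap1* to *Wwtr1* per kilobase was therefore 0.954 in the table of shRNA 1 and 1.30 in that of shRNA 2. Both depend on the length used. With the longest transcript of each gene they were 1.64 and 2.23, and with the coding length 1.71 and 2.32. The first thus turns from below to above 1, and the annotated exons of *Yap1* span 9257 bases and its longest transcript 5282.

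*Lats1* (chromosome 10, 7401007 to 7436256, + strand) had means of 908 and 1012, or 124 and 139 per kilobase. *Lats2* (chromosome 14, 58260914 to 58377225, - strand), a kinase that is also a target of YAP, had means of 1068 and 1157, or 146 and 158 per kilobase. *Lats2* was 1.18-fold and 1.14-fold above *Lats1* per kilobase in the tables of shRNA 1 and shRNA 2. Exons of *Xpo4* on the same strand overlap 4.55% of those of *Lats2*.

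*Tead1* (chromosome 7, 119822832 to 120050319, + strand) had means of 1701 and 1816, or 151 and 162 per kilobase. A second annotated gene of the same symbol and strand overlaps 34.2% of its exonic bases and is not analysed here, so the level of *Tead1* is uncertain. Of the 4 *Tead* genes *Tead1* had the highest level in both tables, with 49.4% and 50.1% of their summed level per kilobase. *Tead4* held 36.2% and 33.8%, *Tead3* 8.34% and 6.86%, and *Tead2* 6.05% and 9.28%. By exon length *Tead1* was 1.37-fold and 1.48-fold above *Tead4*. With the longest transcript of each gene it was 1.32-fold and 1.43-fold above, and with the coding length 4.18-fold and 4.54-fold. How far *Tead1* was ahead thus depends on the length used.

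The 10 genes lie on 6 chromosomes. Chromosomes 3, 7, 9 and 10 carry 2 each, with *Wwtr1* and *Cyr61* on 3, *Tead1* and *Axl* on 7, *Yap1* and *Amotl2* on 9, and *Lats1* and *Ctgf* on 10. No pair shares exons. The target genes *Ankrd1*, *Cyr61* and *Ctgf* have short exonic lengths of 1765, 2028 and 2490 bases, and that of *Tead1* is the longest at 11235. These lengths join the exons of all annotated transcripts, and the longest transcript of *Tead1* has 9962 bases.

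The 2 hairpins were then set against each other. Both tables contain the control libraries, so a gene whose pooled mean differs between them, beyond the scale of the tables, differs between the hairpin groups. The scale was taken as the median log2 ratio over the 7757 genes that averaged 100 or more in each table, which was 0.07, and was subtracted from every ratio. If the control means of the tables differ only by this scale, the control cancels from the difference of the pooled means. The fold between the hairpins is then at least that between the pooled means. A gene was called, without a test, when its centred log2 ratio lay beyond 0.32 in either direction, among the 11451 genes that averaged 10 or more in each table.

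Past this limit were 2 of the 10 genes, *Wwtr1* and *Axl*, against 8.30% of all genes. Both were lower in the table of shRNA 2, a direction in which 4.28% of all genes were past the limit. None of the 10 was higher past the limit, against 4.02% of all genes. Their median absolute log2 ratio was 0.083, and that of the genes averaging 100 or more was 0.086. Of the genes averaging 100 or more, to which all 10 belong, 4.20% were past the limit.

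*Wwtr1* had the largest ratio of the 10. Its mean was 665 in the table of shRNA 1 and 480 in that of shRNA 2 once scaled, a centred log2 ratio of -0.47 or a fold of 1.39. Of the genes averaging 100 or more, 1.20% had a larger ratio in either direction. Its paralog *Yap1* had a scaled mean of 1205 against 1229, a centred log2 ratio of -0.03. The implied difference between the hairpin groups, shRNA 2 minus shRNA 1, was -370 normalized counts for *Wwtr1* and -48.2 for *Yap1*. The sign for *Yap1* turned without the scaling, to 68.1, and the values lack an error, so no direction is given for it.

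*Axl* had a mean of 5361 against a scaled mean of 4248, a centred log2 ratio of -0.34 or a fold of 1.26, just past the limit. The implied difference was -2226 normalized counts. Without the scaling its log2 ratio was -0.27, within the limit. *Ankrd1* went the other way, with 1095 against a scaled 1304. Its centred log2 ratio was 0.25, its implied difference 416 normalized counts, and 8.46% of the genes averaging 100 or more had a larger ratio. *Ctgf* had 8658 against a scaled 7843, with a centred log2 ratio of -0.14 and an implied difference of -1630, which was -873 without the scaling. Among the 4 targets, *Axl* and *Ctgf* had lower scaled means in the table of shRNA 2, and *Ankrd1* and *Cyr61* (log2 ratio 0.08) higher ones. The ratio of *Cyr61* was small, and 54.3% of the genes averaging 100 or more had a larger one. The values lack an error, so whether the targets differ in direction was not tested.

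The other 6 genes, *Cyr61* among them, lay within 1.1-fold. The kinases had centred log2 ratios of 0.09 (*Lats1*) and 0.05 (*Lats2*). *Tead1* had 0.03 and *Amotl2* 0.02. Of all 10 genes, 4 had a lower and 6 a higher scaled mean in the table of shRNA 2. A lower one was found for 48.8% of the 11451 genes.

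**Figure D2:**
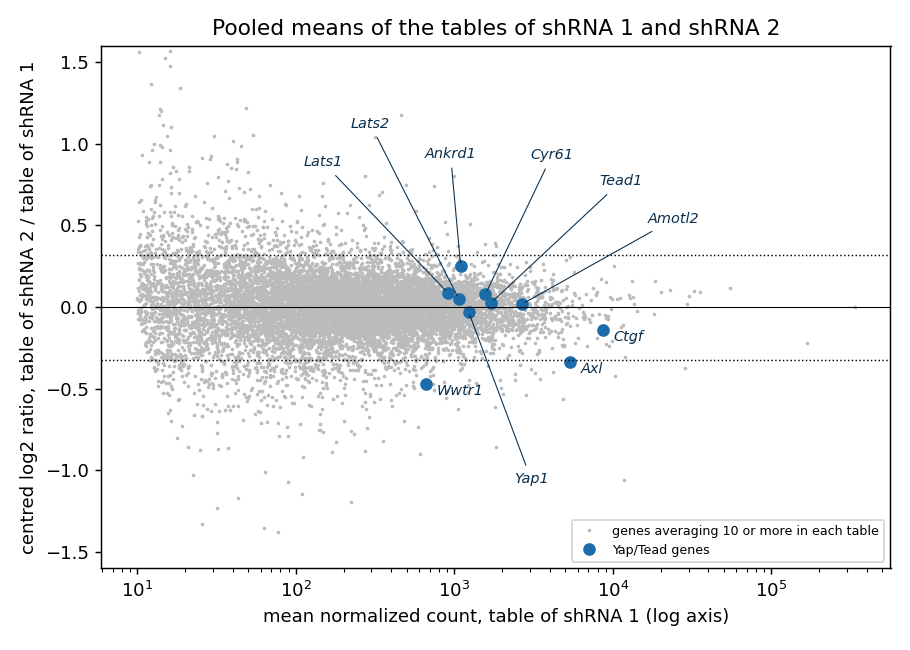
Centred log2 ratio of the mean in the table of shRNA 2 to that in the table of shRNA 1, against the mean in the table of shRNA 1 (log axis), for the genes averaging 10 or more in each table (grey) and the 10 Yap/Tead genes (blue), with dotted lines at the limit of 0.32 and 6 genes beyond the plotted range of 1.6 in either direction. *Wwtr1* (-0.47) and *Axl* (-0.34) lie below the lower line and the other 8 genes lie between the lines.

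A wider list of 51 genes of the Hippo pathway and of YAP targets, written from general knowledge and holding the 10 genes, places them among their partners. In it, 48 genes had a value in both tables, and *Wwc2*, *Dchs1* and *Taok3* are not analysed here. An average of 10 or more in each table was reached by 44. Past the limit of 0.32 were 4 of the 44, against 8.30% of all genes. Of these 4, 3 were lower and 1 higher in the table of shRNA 2, against 4.28% and 4.02% of all genes. A lower scaled mean was found for 29 of the 44, and for 48.8% of the 11451 genes. Without the scaling, 21 of the 44 and 31.5% of the 11451 genes had a lower mean. A majority of the list was thus lower only with the scaling. The share of the list was above that of all genes both with the scaling (65.9%) and without it (47.7%), which was not tested. Of the 34 that are not among the 10, 2 were past the limit, against 8.30% of all genes.

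Among upstream regulators, the highest level was that of *Fat1*, an atypical cadherin, at 629 per kilobase in the table of shRNA 1. Its relative *Fat4* was almost absent, with means of 3.05 and 3.58. All 8 regulators that averaged 10 or more had a lower scaled mean in the table of shRNA 2, none past the limit, with a median log2 ratio of -0.06. Without the scaling, 4 of the 8 had a lower mean there. The shares of all genes averaging 10 or more that were lower were 48.8% and 31.5%, with and without the scaling. Of the 7 core kinases and adaptors none was past the limit. They ranged from 54.4 per kilobase for *Stk3*, which encodes the kinase MST2, to 305 for *Mob1a*, the adaptor that activates LATS kinases. The inhibitors and partners of YAP ranged from *Amot* at 66.9 per kilobase to its relative *Amotl2* at 423, again with none of 7 past the limit. Over all genes the share past the limit was 8.30%, so none among 7 or 8 genes says little about these roles.

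The ratios of the *Tead* genes ran in both directions, and only that of *Tead2* was past the limit. Whether these genes differ among themselves was not tested. *Tead2* had means of 86.6 and 140, which gave a centred log2 ratio of 0.62 or 1.54-fold higher in the table of shRNA 2. *Tead3* had means of 112 and 97.3 with a log2 ratio of -0.28, *Tead4* 399 and 392 with -0.09. Among 19 targets, 16 averaged 10 or more, and levels ran from 0.497 per kilobase for *Rbms3*, an RNA-binding protein, to 3477 for *Ctgf*. Past the limit were *Axl* and *Ccdc80*, against 8.30% of all genes. *Ccdc80*, a matrix-associated protein, had means of 35.8 and 24.2 and a log2 ratio of -0.63. Of the 16 targets, 11 had a lower and 5 a higher scaled mean in the table of shRNA 2, with a median log2 ratio of -0.14. Without the scaling, 10 had a lower mean. Of all genes averaging 10 or more, 48.8% were lower with the scaling and 31.5% without it.

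**Figure D3:**
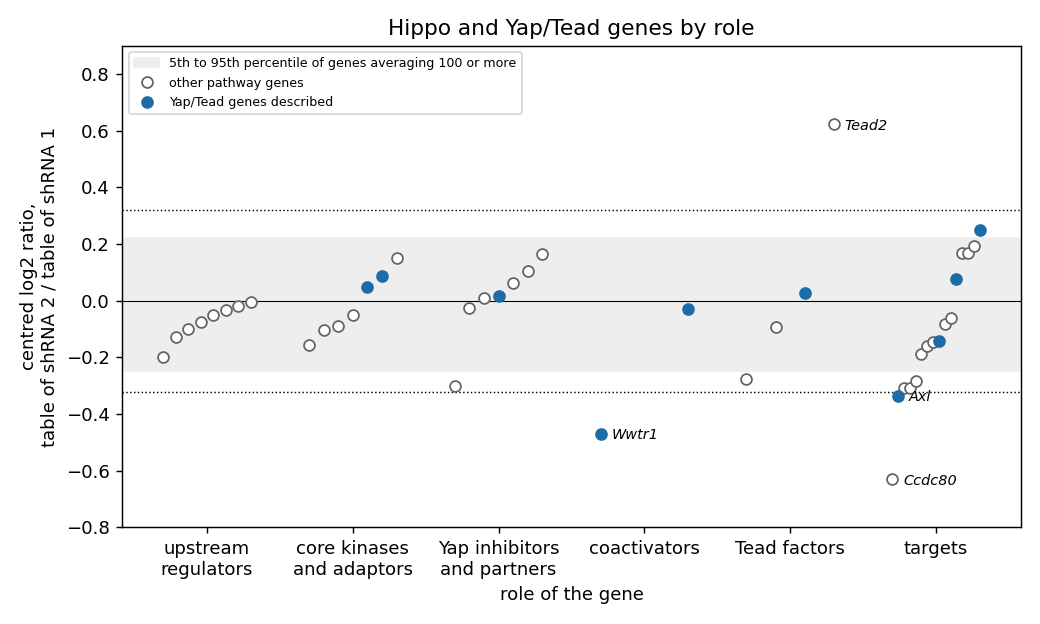
Centred log2 ratio of the table of shRNA 2 to the table of shRNA 1 for 44 genes of the wider list by role, each point 1 gene, the 10 Yap/Tead genes filled, with dotted lines at the limit of 0.32 and a grey band from the 5th to the 95th percentile (-0.25 to 0.22) of genes averaging 100 or more. *Wwtr1*, *Axl* and *Ccdc80* lie below the lower line and *Tead2* (0.62) above the upper one.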

How the data were processed

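The authors aligned trimmed reads to mm9 by TopHat2 and kept unique concordant pairs. The authors then used HTSeq for raw counts per gene of GENCODE M1 and DESeq2 (version 1.8.2) for normalization and comparison. The methods describe strand-specific libraries, and the strand setting of the counting is not given in the sources used here. The authors' deposited tables hold, per gene, a mean normalized count, a signal pooled over 6 libraries, which was used. The other 5 columns hold the authors' own fold change, standard error, statistic, p-value and adjusted p-value and were not used, so no test was run. Nothing says whether replicates were separate cultures, and the descriptions of 2 control libraries name tables of further hairpins, so titles gave the groups.

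Gene lengths and positions came from GENCODE M1 on NCBIM37, which matched every gene identifier. The level per kilobase used the union of exons. The difference between the hairpins was the pooled mean of shRNA 2 divided by the table scale, minus that of shRNA 1, times 2. The calculation of the scale and difference was checked on simulated data with 200 changed genes. In these the control means differed between the tables only by the scale, so that assumption was not tested.

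The genes, the wider list and its roles were chosen with earlier results of these data known. Named are the 10 genes, listed genes with no value, all *Tead* genes, the highest and lowest level per kilobase in each role, and listed genes past the limit. Python 3.11.15, numpy 2.4.6, pandas 2.3.3 and matplotlib 3.10.9 were used.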

Additional observations from a re-analysis of the deposited data

How the results depend on the processing

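With a fold of 1.1 in place of the log2 limit of 0.32, 4 of the 10 genes were past it (35.8% of all genes), with a fold of 1.5 there were 0 (1.58%), and without centring there was 1, *Wwtr1* (9.44%). A minimum of 100 (4.20%) or none (13.2%) left the count at 2. The median centred log2 ratio of the 10 genes, 0.022, was 0.090 without centring, 0.032 with the summed means, 0.016 with the median over all genes and 0.024 with a pseudocount of 10. Only *Yap1* turned its sign under these settings, without centring. The median level of 1398 was 1479 in the scaled table of shRNA 2. The median per kilobase of 287 was 305 in the table of shRNA 2, 417 with the longest transcript and 1124 with the coding length. *Ctgf*, *Axl* and *Cyr61* led under all 3 lengths in the table of shRNA 1, and *Lats1* was last, while by coding length *Tead1* passed *Ankrd1* and *Amotl2*. The median percentile of 93.8 was 93.5 among protein-coding genes and 92.8 among genes averaging 10 or more. Other scalings of the difference between the hairpins, chosen after seeing the data, gave -323 to -373 for *Wwtr1*, -1816 to -2259 for *Axl*, -873 to -1691 for *Ctgf* and 406 to 542 for *Ankrd1*. For *Amotl2* they gave 43.9 to 325, for *Tead1* 48.2 to 229 and for *Lats2* 63.1 to 178. For *Lats1* they gave 107 to 208, for *Cyr61* 161 to 333 and for *Yap1* -57.6 to 68.1. The size for these 6 genes, and for *Ctgf* as well, thus depends largely on the scaling. No paired analysis was possible because the values used are pooled over libraries, and for the same reason no replicate could be left out. Low genes such as *Ccdc80* rest on few counts, and how much their ratios vary by counting alone was not measured.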
